A study of Homo sapiens with 2 samples.

Results

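Signals that pass from RAS through RAF and MEK to the kinase ERK switch on genes whose products turn the same pathway down again, and 8 of these feedback genes are described here: the phosphatases DUSP4, DUSP5 and DUSP6, the Sprouty genes SPRY1, SPRY2 and SPRY4, and the SPRED genes SPRED1 and SPRED2. They were followed in HCT116 cells, a human colorectal carcinoma line labelled as p53+/+. A culture was given 10 nM of the RAF kinase inhibitor SB590885, and another was given vehicle, both when the cells covered 80% of the dish. Total RNA of each condition was measured on 1 Illumina bead array, so 2 arrays make up the series. The members were taken as every probe that the platform annotation maps to these 8 of 20045 named genes, which gave 15 of 30111 named probes.

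The dual-specificity phosphatases of this family remove phosphate from both the threonine and the tyrosine that activate ERK. DUSP6 works in the cytoplasm, whereas DUSP4 and DUSP5 work in the nucleus. Sprouty proteins block growth factor signals upstream of RAF, and SPRED proteins are their relatives that carry neurofibromin, a RAS-inactivating protein, to the membrane. Since ERK drives their transcription, the RNA of these genes, DUSP6 above all, is widely read as a gauge of ERK output. The series title names RAF inhibition across the genome as its subject, and the comparison below asks how this gauge stood with and without the inhibitor.

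Promoter sequence is shown for the members at the ends of the range of ratios described below: DUSP6, the highest, and SPRED2, SPRY2 and SPRY4, the lowest. Windows were taken from RefSeq's promoter table (GRCh38.p14) for 6 of the 8 genes, with 10 start sites among them. None was taken for DUSP4 or DUSP5, so their promoters are not described. Each line gives the 250 bases before the outermost listed start, 5′ to 3′ on the gene's own strand, which is the minus strand for all 4. The DUSP6 window lies at chr12:89352502-89352751, that of SPRED2 at chr2:65432600-65432849, that of SPRY2 at chr13:80341127-80341376 and that of SPRY4 at chr5:142324248-142324497. Capitals mark GGAA or its complement TTCC, the core bound by ETS factors, through which ERK acts on many of its targets.
DUSP6: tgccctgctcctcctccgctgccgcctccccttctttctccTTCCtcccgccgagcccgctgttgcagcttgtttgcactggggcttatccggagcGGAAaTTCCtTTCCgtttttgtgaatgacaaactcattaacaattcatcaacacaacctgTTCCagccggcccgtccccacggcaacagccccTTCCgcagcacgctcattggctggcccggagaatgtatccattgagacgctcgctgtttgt
SPRED2: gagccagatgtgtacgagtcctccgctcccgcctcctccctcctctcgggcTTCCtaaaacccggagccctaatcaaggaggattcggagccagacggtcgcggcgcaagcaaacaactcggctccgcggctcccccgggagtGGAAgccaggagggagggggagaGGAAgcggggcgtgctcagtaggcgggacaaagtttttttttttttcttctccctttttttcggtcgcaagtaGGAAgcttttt
SPRY2: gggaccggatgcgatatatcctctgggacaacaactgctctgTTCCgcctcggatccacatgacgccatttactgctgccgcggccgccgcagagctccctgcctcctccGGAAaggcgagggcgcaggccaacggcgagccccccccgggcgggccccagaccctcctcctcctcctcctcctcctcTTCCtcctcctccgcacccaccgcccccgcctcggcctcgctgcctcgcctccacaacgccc
SPRY4: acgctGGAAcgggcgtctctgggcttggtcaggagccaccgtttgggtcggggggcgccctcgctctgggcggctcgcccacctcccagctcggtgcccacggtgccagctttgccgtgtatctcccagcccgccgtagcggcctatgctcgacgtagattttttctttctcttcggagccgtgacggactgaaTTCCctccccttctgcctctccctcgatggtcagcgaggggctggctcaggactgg
The core, searched on both strands, occurred 6 times in the DUSP6 window, 4 times in that of SPRED2, 3 times in that of SPRY2 and 2 times in that of SPRY4. It was present in all 10 windows of the 6 genes and also in 92.7% of 35116 human promoter windows of this length, with a median of 3 matches. The longer form CCGGAA, which contains the core, occurred in the SPRY2 window above and in the window of a further SPRY1 start, and in 14.5% of all windows. None of the 10 windows held an AP-1 motif (TGANTCA, in 6.57% of all windows), a cyclic AMP response element (TGACGTCA, 1.65%) or the CArG box of serum response factor (1.16%). These matches describe the letters of the windows and show no binding.

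On the arrays themselves, the 8 genes stood close to their vehicle intensities, with ratios of both signs. DUSP6 and DUSP4 were higher on the SB590885 array, by 1.29-fold and 1.13-fold, while DUSP5, all 3 Sprouty genes and both SPRED genes were lower, by 1.01-fold (SPRED1) to 1.19-fold (SPRED2). None of the 8 reached 1.5-fold in either direction, a size that 1.51% of 10430 detected genes reached as higher and 1.16% as lower. Above their vehicle intensity were 2 of 8 members, against 4983 of the 10430 detected genes (47.8%), and 6 were below it. With 1 array per condition there is no replicate error, no test was possible, and every difference is one between these 2 arrays. In RNA from a whole culture, fewer cells carrying a transcript and less of it per cell cannot be told apart.

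A like share of probes was detected on the 2 arrays. With SB590885 16694 of 47318 probes (35.3%) had a detection p under 0.01, the level counted here as detected, and with vehicle 15944 (33.7%). This p compares a probe with the background of its own array and tests nothing between arrays. The epithelial markers EPCAM, CDH1, KRT8, KRT18, KRT19 and CDX2 were detected on both arrays and VIL1 and CEACAM5 on neither. EPCAM read 6439 with SB590885 and 4420 with vehicle, a log2 ratio of 0.54, which is larger than that of any member, and the other 5 had ratios from -0.22 (KRT8) to -0.01 (CDH1). Of 12 leukocyte, stromal and endothelial markers with a named probe 4 were detected, and the other 8, PTPRC and PECAM1 among them, were not. The collagen gene COL1A1 (157.8 with SB590885 and 170.7 with vehicle) and CD68, a lysosomal protein of macrophages (289.3 with SB590885 and 276.1 with vehicle), were detected on both arrays. COL1A2 was detected with vehicle only and DCN with SB590885 only, both at the limit of detection. What part these markers have in the members' ratios was not tested.

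Every member had at least 1 detected probe. Of the 15 probes, 11 were detected on both arrays, 4 on neither, and none on 1 array only. The 4 dark probes belong to DUSP4 (1 of 2), SPRY1 (1 of 3) and SPRY4 (2 of 4), each of which is read by another probe. This is common on the platform: of 4146 genes with several probes and at least 1 detected, 55.3% also had an undetected probe. The intensity at a detection p of 0.5, a measure of the background left in the deposited values, was 112.4 on both arrays, and the lowest detected intensity was 129.8 with SB590885 and 132.2 with vehicle. Probes differ in how strongly they bind, so the intensity of 1 probe is not set against that of another.

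**Figure D1:**
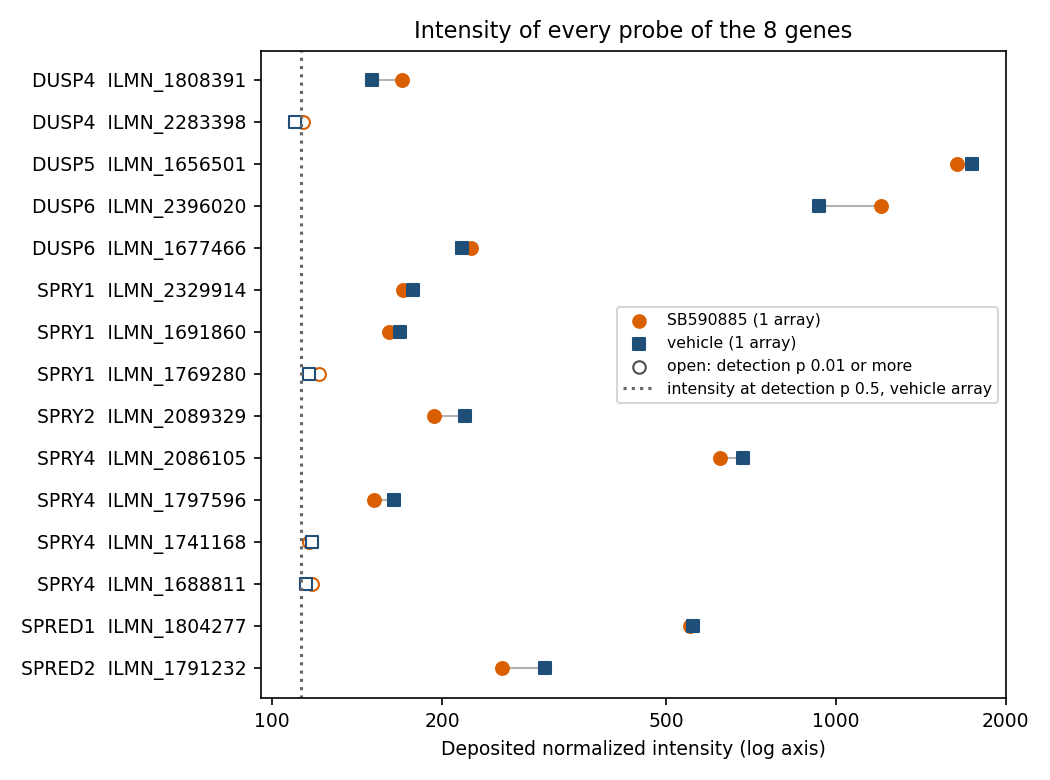
Deposited normalized intensity (log axis) of all 15 probes of the 8 genes, with the SB590885 array as circles and the vehicle array as squares, 1 array each and so without error bars. Open symbols have a detection p of 0.01 or more. The widest gap is that of the brighter DUSP6 probe (1202.9 with SB590885, 932.6 with vehicle), and the 4 open probes sit near the background level of 112.4.

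Among the phosphatases, DUSP6 carried the highest ratio of all members, and it came from 1 of its 2 probes. Probe ILMN_2396020, annotated to transcript NM_022652, read 1202.9 with SB590885 and 932.6 with vehicle, a log2 ratio of 0.37. Probe ILMN_1677466, annotated to NM_001946, read 225.4 with SB590885 and 216.6 with vehicle, a log2 ratio of 0.06. The sign was thus shared and the size was not: the probes differ by 0.31 on the log2 scale. Among 2295 genes with at least 2 probes detected on both arrays, 18.7% had a gap this wide between their 2 brightest probes. Which of the annotated transcripts each probe captured was not tested.

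DUSP4 was read by a dim probe. ILMN_1808391 gave 169.7 with SB590885 and 150.5 with vehicle, a log2 ratio of 0.17. Its other probe, ILMN_2283398, gave 113.2 with SB590885 and 109.6 with vehicle, at detection p-values of 0.44 and 0.68, which is background. DUSP4 therefore rests on 1 probe that stood 19.2 units higher with the inhibitor.

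DUSP5, the nuclear phosphatase specific to ERK, had 1 probe, with a strong signal. ILMN_1656501 read 1640.6 with SB590885 and 1744.3 with vehicle, a log2 ratio of -0.09. The 3 phosphatases, all of them transcribed in response to ERK, thus had ratios of both signs.

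The Sprouty genes were all slightly lower with the inhibitor, and the 2 detected probes of SPRY1 and of SPRY4 had close ratios as deposited. SPRY1, which acts on receptor tyrosine kinase signals in many tissues, had 2 detected probes. ILMN_2329914 read 170.2 with SB590885 and 177.9 with vehicle, and ILMN_1691860 read 161.2 with SB590885 and 168.3 with vehicle. Both ratios were -0.06 on the log2 scale. The third SPRY1 probe, ILMN_1769280, was undetected at 121.1 with SB590885 and 116.2 with vehicle.

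SPRY4, an inhibitor of RAS activation below growth factor receptors, also had 2 detected probes that matched. ILMN_2086105 read 621.9 with SB590885 and 683.5 with vehicle, a log2 ratio of -0.14. ILMN_1797596, which was much dimmer, read 151.3 with SB590885 and 164.2 with vehicle, a log2 ratio of -0.12. Over the 2295 genes with 2 such probes, the difference between the probes' log2 ratios had an SD of 0.25, and 64.7% of pairs had the same sign. The pairs of SPRY1 and SPRY4 lay closer than in most genes, since 99.1% and 92.7% of genes had a gap at least as wide. Probes of 1 gene share the RNA and the array, so their match says nothing about another culture.

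SPRY2, which binds the ubiquitin ligase CBL and the adaptor GRB2, was the lowest of the Sprouty genes. Its only probe, ILMN_2089329, read 193.3 with SB590885 and 219.7 with vehicle, a log2 ratio of -0.18. The SPRED genes had the ratios farthest below and closest to 0 among the lower members. SPRED2 read 255.2 with SB590885 and 304.0 with vehicle on probe ILMN_1791232, a log2 ratio of -0.25 and the lowest of the 8 genes. SPRED1, whose loss causes Legius syndrome, read 551.8 with SB590885 and 556.9 with vehicle on probe ILMN_1804277, a log2 ratio of -0.01, and was the member nearest to no difference.

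In order, the gene values on the log2 scale were 0.37 for DUSP6, 0.17 for DUSP4, -0.01 for SPRED1, -0.06 for SPRY1, -0.09 for DUSP5, -0.14 for SPRY4, -0.18 for SPRY2 and -0.25 for SPRED2. Neighbours in this order differ by less than the probe-pair SD of 0.25. The median was -0.08, beside a median of -2.7e-05 over all detected genes, and the SD among the members was 0.20, beside 0.24 over all detected genes. By family the medians were 0.17 for the 3 phosphatases, -0.14 for the 3 Sprouty genes and -0.13 for the 2 SPRED genes.

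Set among all detected genes, no member stood far out. All 8 lay between the 5th and the 95th percentile of the detected genes, which were -0.37 and 0.37. DUSP6 came nearest to an end, with 94.8% of genes below it, and SPRED2 was at the other side with 11.3% of genes below it. Ratios spread more at some intensities than at others, so each member probe was also placed among the 1000 detected probes nearest to it in mean intensity. The brighter DUSP6 probe had a higher ratio than 90.8% of its 1000 and the DUSP4 probe than 87.4%. At the low side, the SPRED2 probe had 87.0% of its 1000 above it and the SPRY2 probe 84.2%. All 11 detected member probes lay between the 5th and 95th percentile of their own 1000. These places are ranks within 2 arrays and not p-values.

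**Figure D2:**
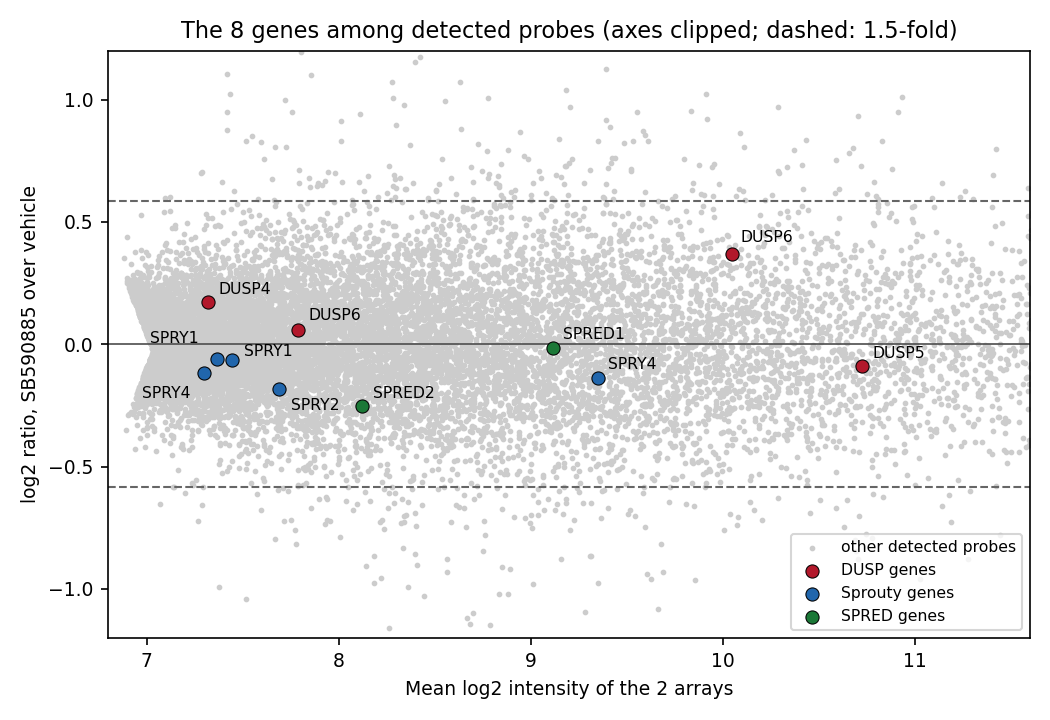
Mean log2 intensity of both arrays (horizontal) against the log2 ratio of SB590885 over vehicle (vertical) for detected probes in grey and the 11 detected member probes in colour, with the dashed lines at 1.5-fold and the axes clipped. All member probes lie between -0.25 and 0.37, inside the dashed lines and inside the grey cloud.

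Background correction widened the ratios of the dim probes and turned none round. The deposited values still contain background, which pulls ratios toward 1. With limma's neqc, which models and removes that background and then adds an offset of 16, all 8 genes kept their sign. None passed 1.5-fold, a size then reached by 5.16% of detected genes as higher and 4.63% as lower. Since the sorted intensities of both arrays were nearly the same, this correction could hardly turn a sign.

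Of the 8 gene values, that of DUSP4 changed most. Its corrected intensities, offset included, were 72.4 with SB590885 and 53.2 with vehicle, so its log2 ratio became 0.44, 2.57 times the deposited one. DUSP6 hardly moved, at 1105.7 with SB590885 and 835.3 with vehicle, or 0.40. After correction DUSP4 and DUSP6 therefore had similar ratios, and their order was turned.

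On the low side SPRED2, SPRY2 and SPRY4 kept their order. SPRED2 had corrected intensities of 158.0 with SB590885 and 206.7 with vehicle, a log2 ratio of -0.39. SPRY2 had 96.1 with SB590885 and 122.5 with vehicle, a log2 ratio of -0.35. The 2 SPRY4 probes, which matched as deposited, separated to -0.16 for the bright and -0.31 for the dim one. SPRY1 came to -0.15 on both probes, DUSP5 stayed at -0.09 and SPRED1 at -0.02. The dimmer DUSP6 probe reached 0.10, still below the brighter one.

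The offset decided how far the dim genes went. With an offset of 50, DUSP4 had a log2 ratio of 0.29, SPRY2 -0.27 and SPRED2 -0.33. With an offset of 1 they had 0.59, -0.41 and -0.42, and DUSP4 then just passed 1.5-fold (0.58 on the log2 scale). DUSP6 stayed between 0.39 and 0.41 over all 3 offsets, so its ratio hardly depends on this choice.

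**Figure D3:**
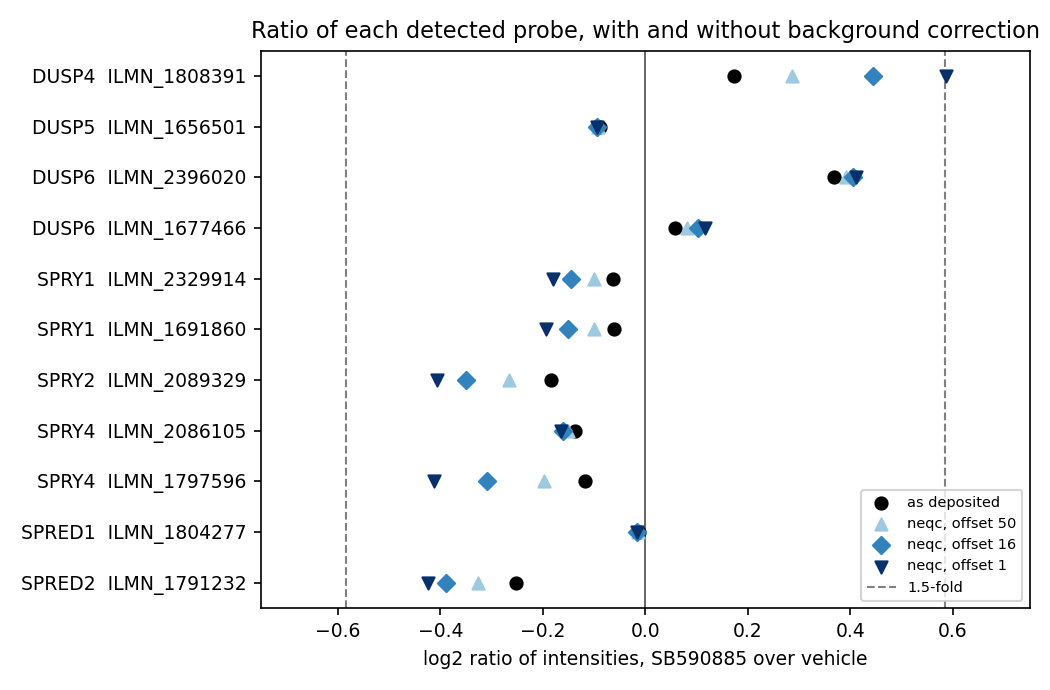
Log2 ratio of SB590885 over vehicle for each detected probe of the 8 genes, as deposited (black circles) and after neqc with offsets of 50, 16 and 1 (blue symbols), with dashed lines at 1.5-fold. Dim probes spread along the axis (DUSP4 from 0.17 to 0.59), bright ones stay in place (DUSP5 at -0.09), and no probe crosses 0.

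SPRY2 lies among genes with low ratios. Its stretch of distal chromosome 13 was low on the SB590885 array. Of the 20 detected genes nearest to it in gene order, from PIBF1 to FARP1, 18 were below their vehicle intensity, with a median log2 ratio of -0.51 and a range of -1.10 (ABCC4) to 0.13 (KLF5). The gene just before SPRY2, NDFIP2, had -0.98, and the one just after it, GPC6, had 0.04. SPRY2 itself, at -0.18, was nearer to 0 than most of them, and 16 of the 20 were lower still. With background correction SPRY2 had -0.35 beside a neighbour median of -0.70. What part this stretch has in the SPRY2 ratio was not tested.

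Around the other 7 members the neighbours' medians were closer to 0. Their 20 neighbours had medians of -0.13 for SPRY1, -0.08 for SPRY4, -0.04 for DUSP4, -0.02 for SPRED1, 0.00 for SPRED2, 0.02 for DUSP6 and 0.04 for DUSP5. With background correction those of SPRY1 and SPRY4 were -0.18 and -0.19, beside -0.15 and -0.16 for the genes themselves. SPRY1 too had most of its neighbours, 13 of 20, below it. DUSP6 was above all 20 of its neighbours, of which the highest had 0.30. SPRED2, at -0.25, had 5 of its 20 neighbours below it, and DUSP4, at 0.17, had 18 below it. Without SPRY2 the median of the members was -0.06.

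**Figure D4:**
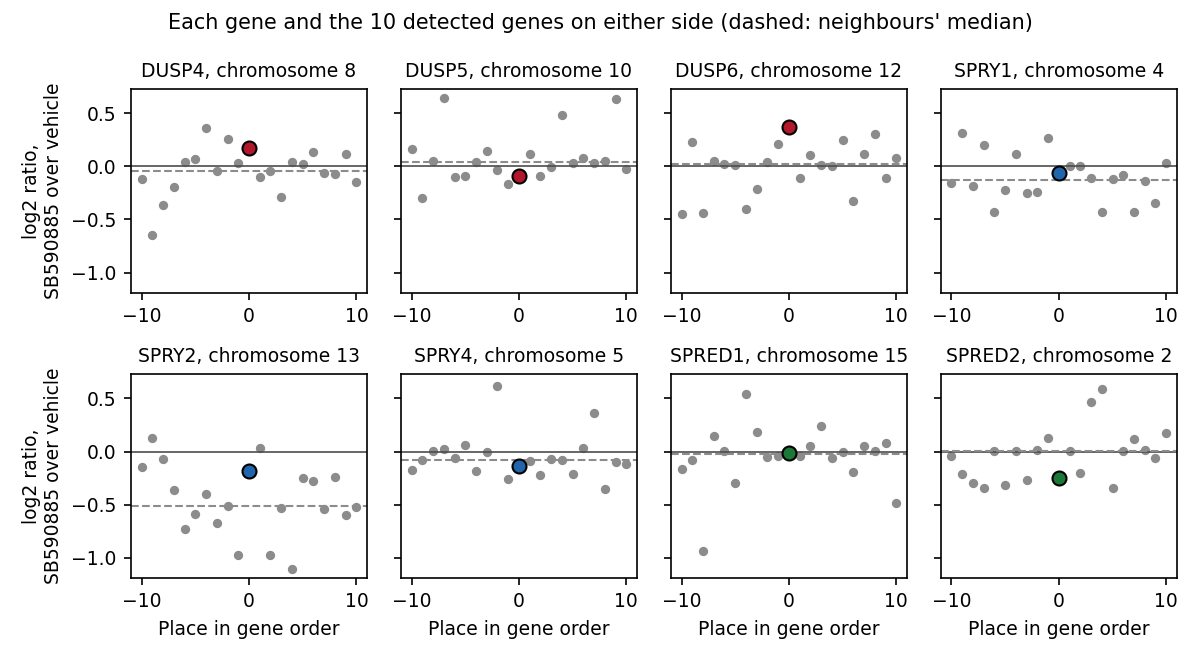
Log2 ratio of SB590885 over vehicle for each member (coloured, place 0) and the 10 detected genes before and after it in gene order (grey), with the neighbours' median dashed. The neighbours of SPRY2 lie low, at a median of -0.51, whereas those of the other 7 genes have medians from -0.13 to 0.04.

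Other dual-specificity phosphatases were slightly below their vehicle level. Of 10 listed genes 7 were detected, 6 of them on both arrays. All 7 were below their vehicle level, whereas 47.8% of all detected genes were above theirs. None was lower by 1.5-fold as deposited, and the median log2 ratio was -0.05. The 6 detected on both arrays had ratios from -0.16 (DUSP3) to -0.004 (DUSP14), all smaller in size than the probe-pair SD of 0.25. DUSP9, a cytoplasmic ERK phosphatase of the same subfamily as DUSP6, read 128.4 with SB590885 and 162.2 with vehicle. It was detected with vehicle only and was at least 1.25-fold lower as deposited. With background correction its log2 ratio, computed against the lowest detected signal, was -0.57 with an offset of 50, -0.99 with 16 and -1.50 with 1, so its size depends on the offset. DUSP3 had -0.16 and DUSP22 -0.15. DUSP16 and DUSP2, further phosphatases of MAP kinases, had -0.04 and -0.03, and DUSP14 read 623.8 with SB590885 and 625.5 with vehicle. DUSP7, DUSP8 and DUSP10 were not detected. DUSP4 and DUSP6 were thus the members of this enzyme family with ratios above 0, among 10 detected genes of the family looked at here.

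In a list drawn up as other feedback genes, more detected genes were above their vehicle level than below it. Of 12 listed genes 10 had a named probe and 6 were detected. Above their vehicle level were 5 of the 6, against 47.8% of all detected genes. None reached 1.5-fold, and the median was 0.13. TRIB1, a pseudokinase that serves the COP1 ubiquitin ligase as an adaptor, read 2675 with SB590885 and 2129 with vehicle, a log2 ratio of 0.33. ERRFI1, which inhibits the EGF receptor, and PPP1R15A, a stress-induced phosphatase subunit, both had 0.15. IL17RD, known as SEF and like Sprouty an inhibitor of fibroblast growth factor signals, had 0.11. PEA15, which holds ERK in the cytoplasm, had -0.07. NF1, the partner of the SPRED proteins, lay at the limit of detection and was detected with SB590885 only. Its bound of 0.002 counts among the 5 above. SPRY3 and SPRED3, the remaining genes of the Sprouty and SPRED families, were not detected.

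Genes commonly used with the 8 members as readouts of ERK were split as well. Of 25 listed, 22 were detected, 20 of them on both arrays. Above their vehicle level were 13, against 47.8% of all detected genes, and 9 were below it. Genes detected on 1 array stood at bounds of 0.02 and count among the 13. None reached 1.5-fold as deposited, and the median was 0.04. EREG, an EGF receptor ligand, was the highest, at 271.8 with SB590885 and 185.2 with vehicle, a log2 ratio of 0.55 as deposited and 0.99 with background correction. PLAUR, the urokinase receptor, had 0.32 and KCNN4, a potassium channel, 0.29. The lowest were the immediate early factor EGR1 (711.4 with SB590885 and 932.4 with vehicle, -0.39), the ETS factor ETV5 (-0.27) and FOS (-0.19). As deposited, the 8 feedback genes and these readouts both had ratios of both signs, with SDs of 0.20 and 0.21. The readouts ran wider, from -0.39 to 0.55, against -0.25 to 0.37 for the 8. With background correction at an offset of 16, EREG was the only readout past 1.5-fold, and no member was.

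Among the proteins that the 8 members bind or act on, more genes were lower than higher. Of 15 with a named probe 14 were detected. Above their vehicle level were 4 of the 14, against 47.8% of all detected genes, and 10 were below it. None reached 1.5-fold with or without background correction, and the median was -0.18. CAV1, which binds Sprouty proteins at the membrane, read 3350 with SB590885 and 4309 with vehicle, a log2 ratio of -0.36. PTPN11, the phosphatase SHP2 that acts on Sprouty proteins, and DYRK1A, a kinase that does the same, both had -0.34. The highest were MAPK3, which encodes ERK1 and is the substrate of the phosphatases (478.7 with SB590885 and 401.1 with vehicle, 0.26), the adaptor SHC1 (0.23) and TESK1, a kinase bound by SPRY4 and SPRED1 (0.13).

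**Figure D5:**
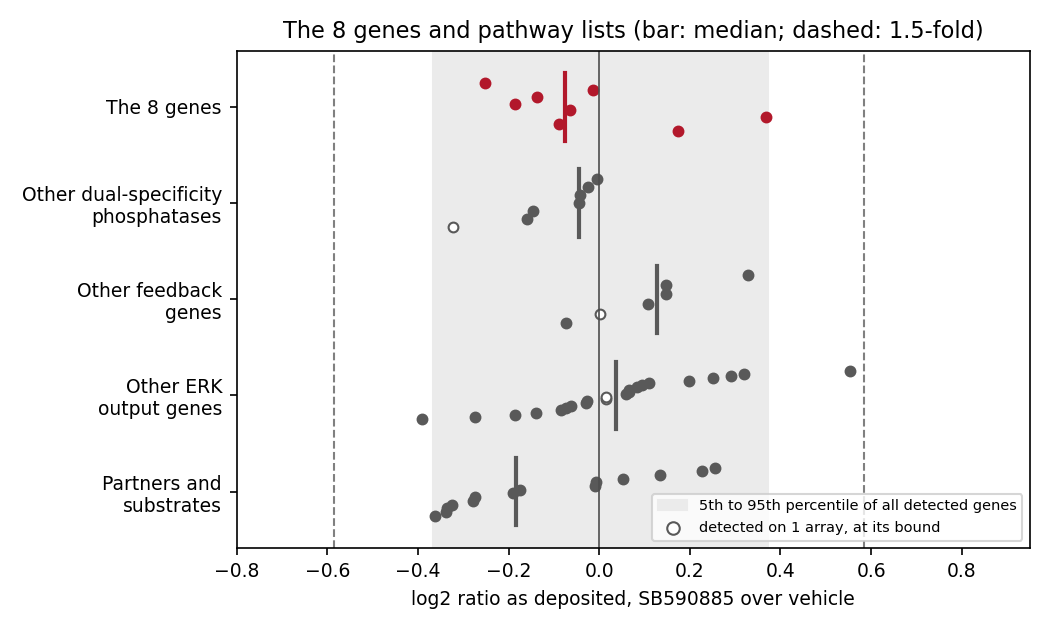
Log2 ratio of SB590885 over vehicle as deposited for the 8 genes (red) and for the detected genes of 4 pathway lists (grey), with medians as bars, 1.5-fold as dashed lines and the 5th to 95th percentile of all detected genes shaded (-0.37 to 0.37). No gene on the plot passes 1.5-fold, and the medians run from -0.18 for partners and substrates to 0.13 for other feedback genes.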

How the data were processed

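RNA of 1 SB590885 and 1 vehicle culture was turned into biotin-labelled cRNA, per the labels' protocols. For 47318 probes the authors deposited linear intensity values with detection p-values. How long the cells were treated, which software read the arrays and how they were normalized is not stated there. Sorted intensities of the 2 arrays differed by at most 0.129, as after quantile normalization, so a difference shared by all genes would not show. The deposited series matrix holds the same values, and the table deposited as non-normalized holds them times 1.025, its detection p included, so no raw signal was used.

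Log2 ratios were computed from the deposited normalized intensities. The correction was neqc in limma 3.58.1 (R 4.3.3), with negative controls inferred from the detection p. It starts from already normalized values. Probes were named through the platform annotation (30111 with 1 gene, 8 with several, left unnamed). For 30072 of the 30111 the symbol was taken from RefSeq's GRCh38.p14 table by Entrez identifier, whether or not it differed. A gene's value was that of its detected probe of highest mean log2 intensity. Of genes detected on 1 array only, the other array was set at the higher of its own and the lowest detected intensity, and the fold is written as "at least". Named were all 8 members, the 3 highest and 3 lowest detected genes of each list, and any past 1.5-fold. Undetected list genes, KLF5, ABCC4 and the flanking genes of SPRY2 were named after their values were seen. The members and lists were chosen with earlier results of these data known. Alternatives were other offsets, median centring, an added 16, the other tables, a detection p of 0.05, detection on both arrays, a 2-fold rule, probe means and the median without SPRY2.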

Additional observations from a re-analysis of the deposited data

How the results depend on the processing

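No member changed direction under any alternative. Sorted intensities of the 2 arrays were nearly the same, so the corrections treated both nearly alike and could hardly turn a sign. For the members and the named list genes, 90 values were recomputed, which gave 388 comparisons of an alternative with the main setting. Of these comparisons, 365 stayed within a set limit and 23 moved further. The limit was 0.177 on the log2 scale (the probe-pair SD per probe) or, for counts, 1.5 times. A reversal was counted only for a ratio past 1.5-fold as deposited. No ratio was past it, so no reversal could be counted. The number of members at least 1.5-fold higher was 0 as deposited and 1 with neqc at an offset of 1, that gene being DUSP4, and 0 under the other 9 alternatives. The number at least 1.5-fold lower was 0 throughout. The members' median log2 ratio, -0.08 as deposited, ran from -0.13 with median centring to -0.02 with the mean in place of the median. The series matrix and the table deposited as non-normalized repeat the main ratios and could not move them, yet they count among the 365. Dim probes (DUSP4, SPRY1, SPRY2, the second SPRY4 probe) are limited by their closeness to background. No paired analysis was possible because each condition had 1 array, and no array could be left out.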
